A study of Mus musculus with 19 samples.

Results

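The genes described here are those of fatty acid oxidation and acyl-CoA metabolism in FDCPmix cells labelled as treated or sampled at set times after tamoxifen. FDCPmix is an interleukin-3-dependent line of blood progenitors from the mouse, and tamoxifen binds the oestrogen receptor. They were chosen by symbol: every probe with a single gene symbol that begins with Acad, Acsl, Acsm, Acsb, Acss, Acot, Acox, Acaa, Hadh, Cpt, Ech, Eci, Etf or Pank in its numbered or lettered forms. This gave 46 genes on 61 probes, of 9834 genes on 13891 probes with a single symbol. They comprise 11 acyl-CoA synthetases, 3 carnitine palmitoyltransferases, 9 acyl-CoA dehydrogenases, 4 hydratases and isomerases, 2 hydroxyacyl-CoA dehydrogenases, 3 thiolases, 2 acyl-CoA oxidases, 3 genes of the electron transfer flavoprotein, 7 thioesterases and 2 pantothenate kinases. RNA was measured on 19 arrays of 2 colours, each pairing a treated culture with a reference. In the treated group (4 arrays, whose own labels name neither an agent nor a time) the reference was non-treated FDCPmix RNA. In the groups taken 3 h, 7 h, 12 h (4 arrays each) and 23 h (3 arrays) after tamoxifen it was RNA of treated cells at 0 h, so both RNAs of a time course array came from treated cells. In each group of 4 the treated RNA carried Cy5 on replicates 1 and 2 and Cy3 on replicates 3 and 4; at 23 h replicates 1, 3 and 4 were analysed, 1 with Cy5 and 2 with Cy3. The labels name no transgene and no dose, add the words ES cell line without explanation, and do not say that the arrays of a group came from separate cultures, so the p-values measure only the spread between arrays.

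Fatty acids are burnt after a synthetase has joined them to coenzyme A. Carnitine palmitoyltransferases carry the long chains into the mitochondrion, where a spiral of dehydrogenation, hydration, a second dehydrogenation and thiolysis releases acetyl-CoA. The electrons of the first step reach the respiratory chain through the electron transfer flavoprotein, Etfa with Etfb, and its dehydrogenase Etfdh. Peroxisomes run a parallel spiral that starts with an oxidase, thioesterases undo the activation, and pantothenate kinases control the making of coenzyme A itself. Blood stem and progenitor cells are known to use this pathway for their maintenance.

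Values below are log2 ratios of the treated RNA to its reference, centred on each array, on the assumption that the deposited log ratios have base 2 and the treated RNA as numerator. Neither is stated, so higher and lower hold under that assumption, and results that turn when the signs of the Cy3 arrays are changed are named. A gene was called where limma gave an adjusted p under 0.05 (Benjamini-Hochberg over all features tested). The treated arrays were the most spread, with a median SD between arrays of 0.28 for the members against 0.13 to 0.17 at the 4 times. Arrays of the time course with the same dye resembled each other little, with Pearson correlations over all features between -0.15 and 0.32 (49 pairs). Replicate 4 at 7 h and replicate 3 at 23 h were in doubt: on the first the repeated extreme value, a value beyond 16 found on several spots of each array, is positive although the treated RNA is labelled Cy3, and the second had a deposited median of 0.233. For member values printed with their SE at 7 h or 23 h, the value without the array in doubt is also given where it moved by over 1.5 times; ranges include both arrays. A ratio holds no level, so the labelled cell type could not be checked by level. Of 9 measured progenitor markers 0 were called in any comparison, and the list's median lay between -0.034 and 0.038.

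Most of the pathway stood close to its reference, as did most of all features. In treated cells 1 of 45 tested members was called, Etfdh, which fell; the share called among all 15915 features was 4.76%. At 3 h, 7 h, 12 h and 23 h 0 of 46 members were called, where the background was 0% at 3 h, 7 h and 23 h and 0.0186% (3 of 16089) at 12 h. By an unadjusted p under 0.05 in limma the members numbered 11 in treated cells and 1, 2, 2 and 2 at the 4 times, with backgrounds of 22.0%, 5.37%, 3.37%, 3.51% and 1.70%. As shares the members came to 24.4%, 2.17%, 4.35%, 4.35% and 4.35%, near those of all features in the treated cells and at 7 h and 12 h. The median over members was 0.041 in treated cells and -0.018, -0.019, -0.023 and -0.014 along the time course. The medians of all features were 0.0090, 0, -0.0018, 0.0023 and -0.0012, so the members as a group were centred where the other features were, to within 0.05. At all 4 times 37 of 46 members lay within 0.25 of 0. Taken time by time, 93.5%, 91.3%, 91.3% and 91.3% of members lay within it. Of all features 93.4%, 93.2%, 94.6% and 93.8% did, so this closeness is not particular to the members. The median 95% confidence interval of a member, without adjustment for the number of features, reached 0.23 to either side of its value, or 0.27 at 23 h. Smaller differences of a typical member were not detectable with these arrays. A call over all features needs a larger difference, so the lack of calls does not exclude values above 0.23. Members with every array on 1 side of 0 numbered 8 of 45 in treated cells and 9, 5, 5 and 14 of 46 at the 4 times (17.8%, 19.6%, 10.9%, 10.9% and 30.4%), against 14.6%, 22.0%, 12.9%, 14.9% and 20.0% of all features. The 14 at 23 h were 8 above and 6 below 0, over only 3 arrays.

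**Figure D1:**
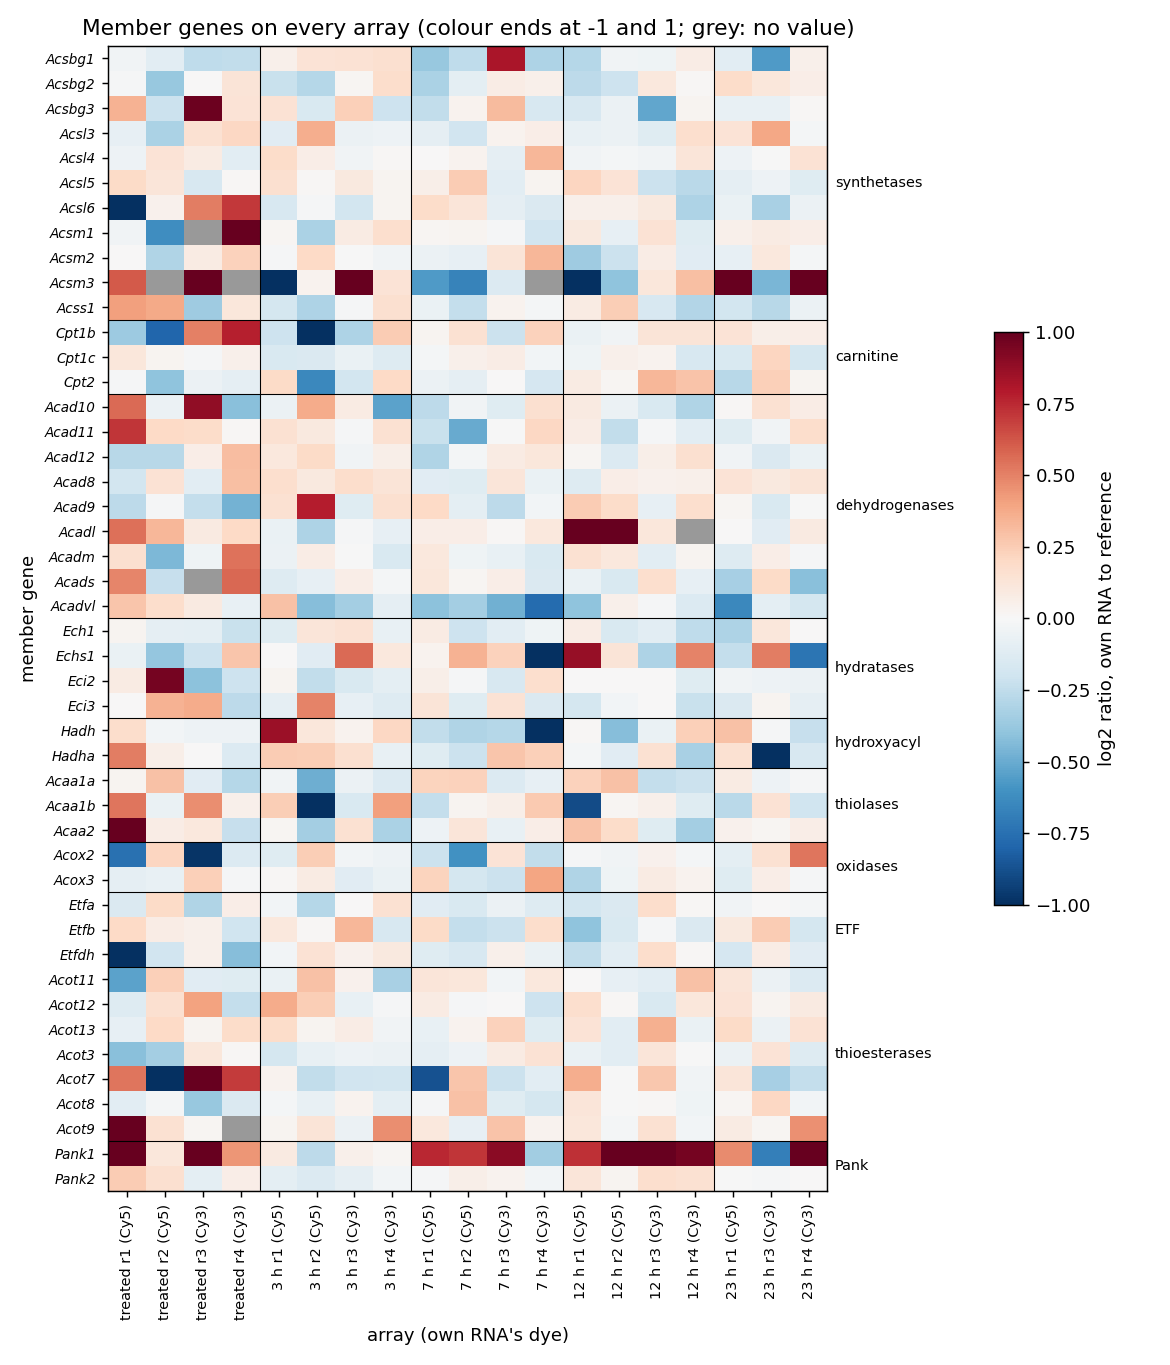
Each row is a member gene, grouped by role, and each column an array; colour gives the centred log2 ratio of the treated RNA to its reference, with grey for no value. Most cells are pale, the treated columns are the most uneven, and Pank1 is the member with the most coloured row, above 0.7 on all 4 arrays at 12 h.

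**Figure D2:**
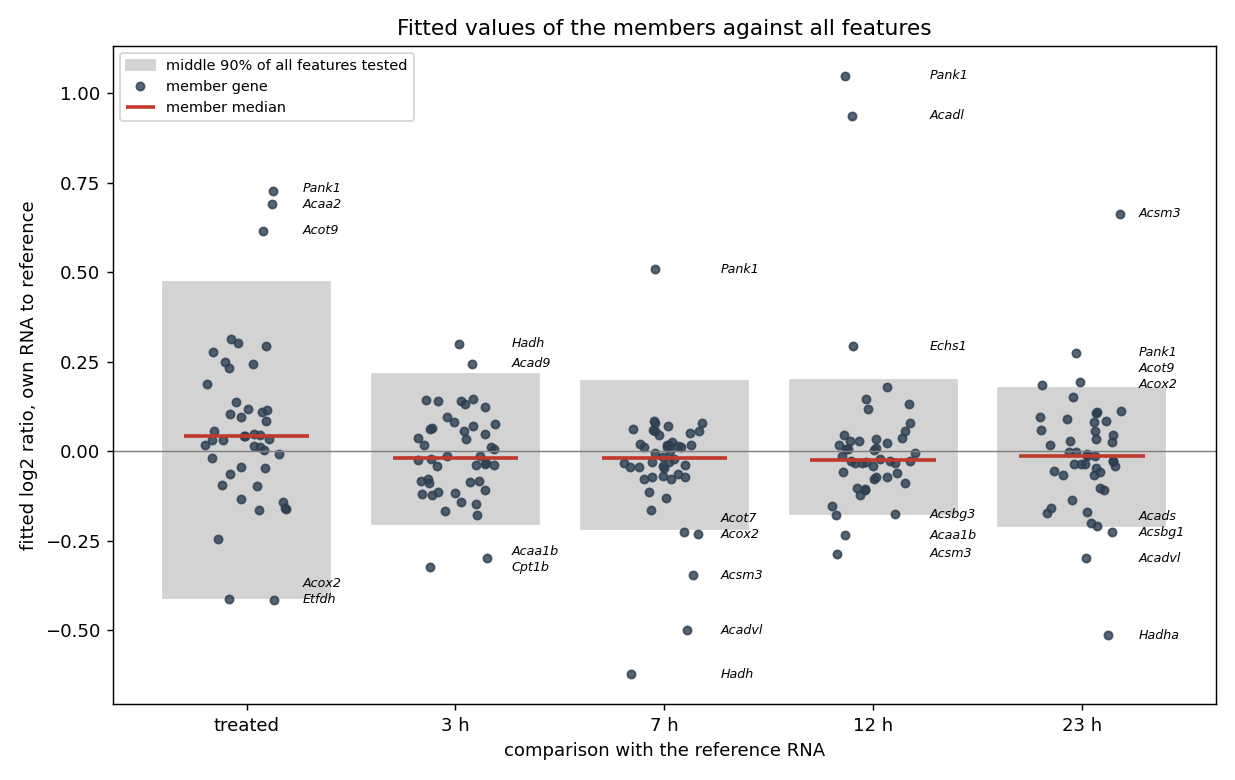
Fitted log2 ratios of the members (points) in each comparison against the spread of all features tested, from the 5th to the 95th percentile. The members outside it number 5 of 45 in treated cells and 4, 6, 6 and 8 of 46 at 3 h, 7 h, 12 h and 23 h.

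The member that stood furthest above its reference was Pank1, a pantothenate kinase and so an enzyme of the rate-limiting step of coenzyme A synthesis. At 12 h its 4 arrays read 0.73, 1.05, 1.45 and 0.96 (SD 0.30). At 3 h they read 0.086, -0.26, 0.050 and 0.023, and the ranges of these times do not overlap. At 7 h they read 0.76, 0.72, 0.91 and -0.34: 3 arrays lie near the 12 h values and replicate 4, an array in doubt, lies below 0. At 23 h the values were 0.47, -0.68 and 1.02, with replicate 3, the other array in doubt, on the opposite side of the other two. The treated arrays read 1.17, 0.11, 1.19 and 0.44, all above 0 and widely spread. The fit put Pank1 at 1.05 at 12 h (SE 0.25, 95% interval 0.52 to 1.58), with an adjusted p of 0.745 in limma. In treated cells it stood at 0.73 (SE 0.25, adjusted p = 0.103), at 3 h at -0.025, at 7 h at 0.51 (SE 0.25) and at 23 h at 0.27 (SE 0.29). None of these was called.

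The calls of Pank1, and its values at 7 h and 23 h, moved with the arrays in doubt. Neither array belongs to the 12 h or treated group. Without them the Pank1 values there stayed the same, while the SE, which is pooled over all groups, fell to 0.15. Without both, Pank1 was called at 12 h at 1.05 (limma, adjusted p = 0.0114; 0.162% of all features called) and in treated cells at 0.73 (adjusted p = 0.0195; 4.44% called). The values at 7 h and 23 h were then 0.83 (adjusted p = 0.0955) and 0.75 (adjusted p = 0.454). Weighting the arrays by their agreement with the fit also gave a call at 12 h, at 1.02 (adjusted p = 0.0146). In treated cells leaving out replicate 2 alone gave 0.95 (adjusted p = 0.0448), a call. Leaving out replicate 1 gave 0.57 (adjusted p = 0.255), replicate 3 0.56 (adjusted p = 0.258) and replicate 4 0.83 (adjusted p = 0.110), with no call. The result depended on the reading of the signs: with the signs of the Cy3 arrays changed Pank1 stood at -0.16 at 12 h and -0.086 in treated cells. Pank2, the mitochondrial pantothenate kinase, read 0.12, 0.026, 0.17 and 0.15 at 12 h. It was fitted at 0.12 (SE 0.055, adjusted p = 1), and at -0.042 with the Cy3 signs changed. Its 3 probes averaged 0.18, 0.13 and 0.040 at 12 h.

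**Figure D3:**
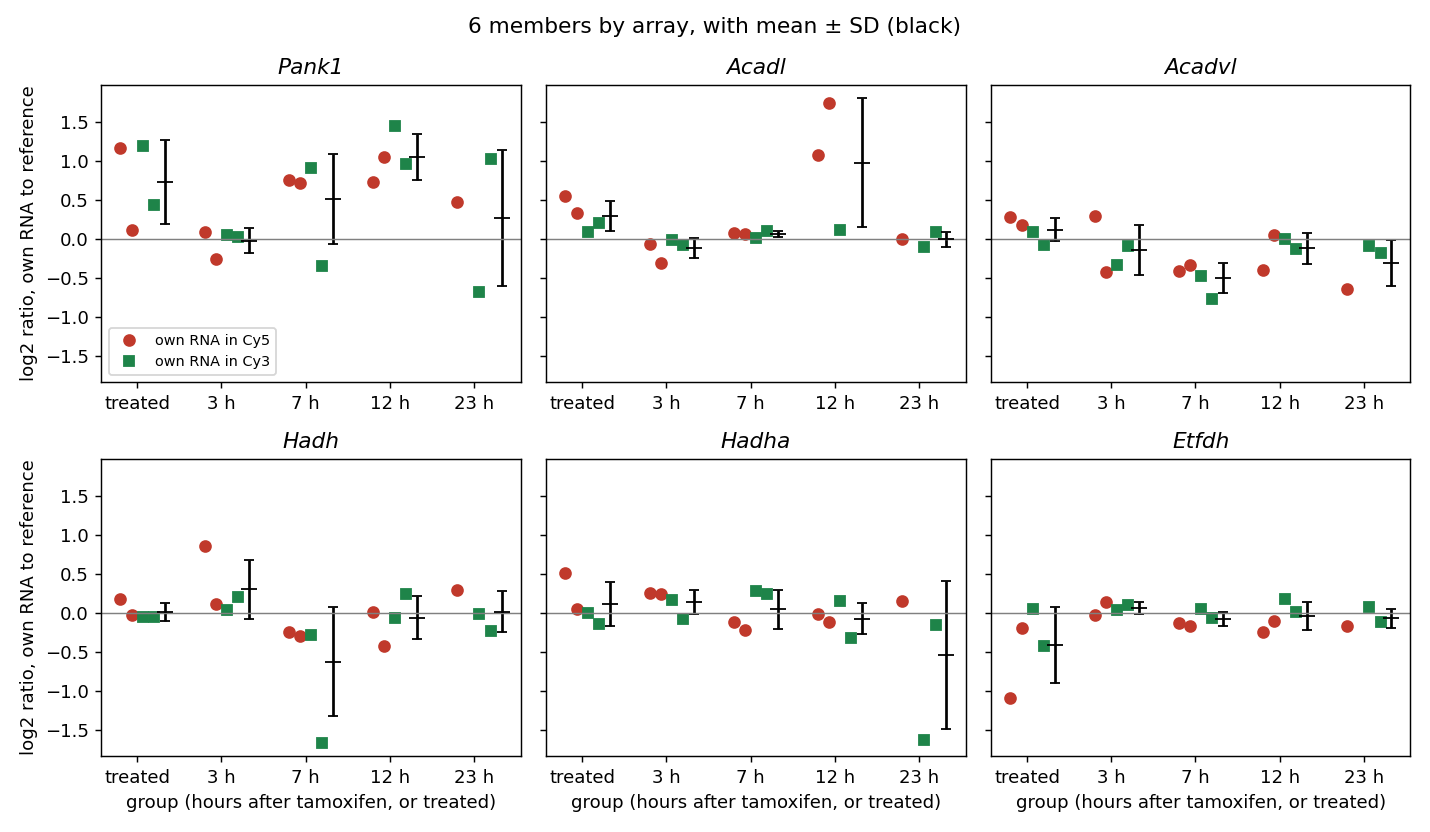
Centred log2 ratios of 6 members on each array (points, by dye of the treated RNA) with the mean ± SD of each group (black), for treated cells and 3 h, 7 h, 12 h and 23 h. Pank1 lies above 0 on all 4 arrays at 12 h, Acadl on the 3 arrays with a value there, and Hadh and Hadha each have 1 array far below the others, at 7 h and 23 h.

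The promoters of the members on which the results turn are shown to put their sequence beside the ratios. They are the 250 bases before the RefSeq start (GRCm38.p6), written 5′ to 3′ on the gene's strand, in lower case with nuclear receptor motifs in capitals. Etfdh is the member called, and Acadl and Pank1 had the smallest p at 12 h and Acadvl at 7 h. Acsl6 was chosen by sequence alone. A single start of it is the only member promoter with a motif of the oestrogen-related receptors, nuclear receptors known as activators of fatty acid oxidation genes. That start is printed, while its other starts, chr11:54303954-54304203 and chr11:54314653-54314902, hold none of the motifs searched.
Pank1, chr19:34877918-34878167, minus strand: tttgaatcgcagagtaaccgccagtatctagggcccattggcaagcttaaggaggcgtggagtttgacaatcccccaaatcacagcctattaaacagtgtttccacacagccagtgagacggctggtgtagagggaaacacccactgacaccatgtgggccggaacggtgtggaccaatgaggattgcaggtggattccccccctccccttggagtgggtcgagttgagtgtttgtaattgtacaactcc
Pank1, second start, chr19:34879456-34879705, minus strand: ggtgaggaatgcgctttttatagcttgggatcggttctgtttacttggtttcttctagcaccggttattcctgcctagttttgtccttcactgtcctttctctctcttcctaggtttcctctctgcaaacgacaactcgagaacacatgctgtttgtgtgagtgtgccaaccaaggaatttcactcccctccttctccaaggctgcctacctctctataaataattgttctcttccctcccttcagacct
Acadl, chr1:66863310-66863559, minus strand: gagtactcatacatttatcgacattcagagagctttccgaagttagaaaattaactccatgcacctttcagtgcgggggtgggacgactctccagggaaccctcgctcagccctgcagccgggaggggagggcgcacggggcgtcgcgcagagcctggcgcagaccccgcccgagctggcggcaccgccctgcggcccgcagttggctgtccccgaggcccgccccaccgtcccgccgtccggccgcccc
Acadvl, chr11:70015429-70015678, minus strand: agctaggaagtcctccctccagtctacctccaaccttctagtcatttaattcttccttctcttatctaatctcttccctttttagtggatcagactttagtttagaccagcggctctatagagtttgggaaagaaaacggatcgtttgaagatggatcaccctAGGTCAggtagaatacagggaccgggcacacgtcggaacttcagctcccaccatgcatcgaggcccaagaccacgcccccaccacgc
Etfdh, chr3:79628768-79629017, minus strand: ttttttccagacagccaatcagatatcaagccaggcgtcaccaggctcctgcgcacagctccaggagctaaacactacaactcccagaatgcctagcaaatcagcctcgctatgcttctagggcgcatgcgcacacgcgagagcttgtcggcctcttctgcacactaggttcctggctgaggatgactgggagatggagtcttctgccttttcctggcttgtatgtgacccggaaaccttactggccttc
Acsl6, chr11:54303574-54303823, plus strand: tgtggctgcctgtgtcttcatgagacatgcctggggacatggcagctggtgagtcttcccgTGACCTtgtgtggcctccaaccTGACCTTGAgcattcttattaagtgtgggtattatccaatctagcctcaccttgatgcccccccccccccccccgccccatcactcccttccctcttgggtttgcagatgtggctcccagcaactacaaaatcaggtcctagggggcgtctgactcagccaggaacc

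Promoters were on hand for 41 member genes (50 starts). Entries were not on hand for Acaa2, Acad9, Acot13, Acsbg2 and Cpt1b. Both strands were searched for the repeat bound by PPAR with RXR, 2 copies of AGGTCA with 1 base between, which is in 0 of the 50 and in 0.0335% of all 32851 promoters of this length. The oestrogen response element, GGTCA and TGACC with 3 bases between, is in 0 of the 50 and in 0.0639% of all. The motif of the oestrogen-related receptors, TCAAGGTCA, is in 1 of the 50, on the strand opposite to Acsl6, where it begins, as printed, 167 bases before the start and reads away from it, and in 0.387% of all. Its core AGGTCA, chosen after the other searches and part of the PPAR and oestrogen-related receptor motifs, is in 7 of the 50 and in 14.0% of all. The genes that hold the core are Acadm, Acadvl, Acot12, Acsl6, Acsm1, Cpt1c and Echs1. In Acadvl it lies 87 bases before the start. Pank1, Acadl and Etfdh hold none of the 4 in the windows printed. A match describes letters and is no shown site. The median GC content was 57.2% in the member promoters and 52.4% in all.

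Activation, the joining of a fatty acid to coenzyme A, showed 0 calls among its 11 synthetases in any comparison. Their median was 0.024 in treated cells (10 tested) and 0.0049, -0.031, -0.032 and -0.028 at 3 h, 7 h, 12 h and 23 h. At 12 h 9 of the 11 lay below 0, the lowest being Acsm3 at -0.29, while 51.1% of all features lay above 0. The long-chain synthetases Acsl3, Acsl4 and Acsl5 stayed between -0.057 and 0.15 at every time. Acsl3, which serves lipid droplets, had the largest of these values at 23 h: its arrays read 0.14, 0.39 and -0.020, and the fit gave 0.15 (SE 0.11, adjusted p = 0.99994). It was 0.060 without both arrays in doubt, 0.26 without replicate 4 and -0.070 with the Cy3 signs changed. Acsl6, of which the start with a motif is printed above, read -1.12, 0.041, 0.51 and 0.71 on the treated arrays. The Cy5 arrays of Acsl6 there lie below the Cy3 arrays, and its fitted value was 0.033. It was called without treated replicate 1, and at -0.57 with the Cy3 signs changed.

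Among the medium-chain synthetases Acsm3 varied most between arrays. It read 1.52, -0.46 and 1.25 at 23 h and was fitted at 0.66 (SE 0.47, adjusted p = 0.99994). Its replicate 3, in doubt, lies below 0 and the others above. Without both arrays in doubt the fitted value was 1.39 (adjusted p = 0.660), and without replicate 1 it was -0.12. It had values on 2 treated arrays, 0.61 and 1.23, and was not tested there. Acsm2 read -0.35, -0.21, 0.070 and -0.11 at 12 h, fitted at -0.15 (SE 0.076, adjusted p = 1); replicate 3 lies above 0 and the other arrays below. It had the smallest p of the synthetases in the test among times, and was not called there. Acsm1 read -0.034, -0.62 and 1.08 on 3 treated arrays, far apart. Acss1, which makes acetyl-CoA from acetate in mitochondria, stood at 0.14 in treated cells and between -0.16 and -0.030 at the 4 times. Of the bubblegum synthetases, which take very long chains, Acsbg1 ranged from -0.23 to 0.12 over the time course. A single probe of Acsbg3 averaged -1.05 at 12 h, with values on only 2 arrays there (SD 0.91). The other probes averaged 0.0435 and -0.0435 on 4 arrays each. The mean of -0.18 for Acsbg3 therefore rests on the probe with 2 values.

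The carnitine shuttle was represented by Cpt1b, the outer membrane transferase of muscle, Cpt1c, its brain form, and Cpt2, the inner membrane enzyme, and 0 of the 3 were called. At 3 h all 3 stood below 0, with a median of -0.12. Cpt1c was the evenest, at -0.15, -0.15, -0.065 and -0.13 on the 4 arrays, all below 0. Its fitted value was -0.12 (SE 0.063, adjusted p = 0.887), and -0.027 with the Cy3 signs changed. Cpt1b read -0.21, -1.03, -0.31 and 0.26, with replicate 2 far below the others. It was fitted at -0.32 (SE 0.18, adjusted p = 0.889) and at -0.14 without that array. In treated cells Cpt1b read -0.37, -0.79, 0.50 and 0.78, negative on both Cy5 arrays and positive on both Cy3 arrays. Its fitted value there was 0.030, and with the Cy3 signs changed it was called at -0.61. Cpt2 stood at -0.11 at 3 h and 0.18 at 12 h, the time at which all 4 of its arrays lie above 0.

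The acyl-CoA dehydrogenases, which take the first electrons from the chain, had 0 of 9 called. Acadl, the long-chain enzyme, read 1.07, 1.75 and 0.11 on the 3 arrays with a value at 12 h. Replicates 1 and 2, both Cy5, are far above replicate 3, and replicate 4 gave no value. The other times were flat: -0.064, -0.31, -0.011 and -0.079 at 3 h, 0.070, 0.066, 0.013 and 0.10 at 7 h and 0.0030, -0.11 and 0.088 at 23 h, all below every 12 h value, though replicate 3 at 12 h only just above them. The fit at 12 h gave 0.94 (SE 0.18, n = 3, limma adjusted p = 0.405). Leaving out replicate 3 at 12 h gave a call at 1.39 (adjusted p = 0.00217), and leaving out replicate 2 gave 0.59 with none. Array weights also gave a call, at 1.17 (adjusted p = 0.00789). With the Cy3 signs changed the value was 0.85. The treated arrays read 0.55, 0.34, 0.093 and 0.20, all above 0, with a fitted value of 0.29 (adjusted p = 0.292). Acadl had a single probe.

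Acadvl, which opens the oxidation of the longest chains at the inner membrane, stood below its reference at all 4 times. At 7 h it read -0.41, -0.34, -0.48 and -0.77, all below 0, and at 23 h -0.64, -0.095 and -0.18, again all below 0. At 3 h and 12 h its arrays lay on both sides of 0, at 0.29, -0.42, -0.34 and -0.089 and -0.40, 0.051, -0.0080 and -0.14. The fitted values were -0.14, -0.50, -0.12 and -0.30 in the order of time. The value at 7 h had the smallest p of all members there (SE 0.12, 95% interval -0.75 to -0.25) but an adjusted p of 1 in limma. At 23 h the SE was 0.14 and the adjusted p 0.99994; without both arrays in doubt the values were -0.41 at 7 h and -0.41 at 23 h. Without replicate 1 the 23 h value was -0.072. At 7 h the 2 Cy5 and 2 Cy3 arrays lie on the same side, so with the Cy3 signs changed they oppose each other and the value was 0.13. In treated cells Acadvl stood at 0.12.

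The medium-chain enzyme Acadm, deficient in a common inborn error of fatty acid oxidation, stayed between -0.040 and 0.045 over the time course. These are means of 2 probes that lay on opposite sides of 0 at each time. They averaged 0.051 and -0.13 at 7 h, -0.027 and 0.12 at 12 h and 0.062 and -0.11 at 23 h. In treated cells Acadm stood at 0.056, from arrays of 0.16, -0.45, -0.040 and 0.55. Acads, the short-chain enzyme, read -0.33, 0.19 and -0.42 at 23 h, with replicate 3 above 0 and the others below. It was fitted at -0.21 (SE 0.13, adjusted p = 0.99994), at -0.37 without both arrays in doubt and at -0.069 without replicate 4. Acad9, an assembly factor of respiratory complex I, had the smallest p at 3 h. Its arrays there read 0.15, 0.78, -0.12 and 0.16, with replicate 2 high and replicate 3 below 0, and the fit gave 0.24 (SE 0.097, adjusted p = 0.887). Without replicate 2 it was 0.092. In treated cells Acad9 read -0.26, -0.013, -0.23 and -0.47, all below 0, and was fitted at -0.25 (adjusted p = 0.151) but at 0.11 with the Cy3 signs changed. Acad8, the isobutyryl-CoA dehydrogenase of valine breakdown, read 0.17, 0.099, 0.18 and 0.13 at 3 h, an even group wholly above 0. Its fitted value was 0.14 (SE 0.069, adjusted p = 0.887), which becomes -0.0088 with the Cy3 signs changed. Acad10, Acad11 and Acad12 lay between -0.13 and 0.097 at every time. The 2 probes of Acad11 averaged -0.21 and 0.23 at 23 h.

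The hydratases and isomerases, which act on the double bond left by the dehydrogenases, had 0 of 4 called, with medians between -0.065 and 0.033 over the 5 comparisons. Echs1, the short-chain enoyl-CoA hydratase, was the most spread of them: at 12 h it read 0.87, 0.13, -0.31 and 0.49, and at 7 h 0.034, 0.35, 0.23 and -1.27. Replicate 3 is the one low array at 12 h and replicate 4, in doubt, the one at 7 h. The fitted 7 h value of Echs1 was -0.16, and 0.21 without both arrays in doubt. Most of the spread between its arrays came from 1 of its 2 probes. That probe averaged 0.51 (SD 1.04) at 12 h and -0.37 (SD 1.36) at 7 h. The other averaged 0.075 (SD 0.18) at 12 h and 0.040 (SD 0.25) at 7 h. Ech1, Eci2 and Eci3 stayed between -0.12 and 0.048 at all times.

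The enzymes of the next step, the 3-hydroxyacyl-CoA dehydrogenase Hadh and the trifunctional protein subunit Hadha, each had 1 array that set its value. Hadh read -0.24, -0.30, -0.29 and -1.66 at 7 h; all 4 arrays are below 0, and replicate 4, in doubt, is far below the rest. The fit gave -0.62 (SE 0.18, adjusted p = 1), and -0.29 without that array. With the Cy3 signs changed it was 0.35. At 3 h Hadh read 0.85, 0.11, 0.032 and 0.21, all above 0 and so apart from the 7 h arrays, with a fitted value of 0.30. At 12 h and 23 h its arrays lay on both sides of 0. Hadha read 0.15, -1.62 and -0.16 at 23 h, where replicate 3, in doubt, lies far below the others. It was fitted at -0.51 (SE 0.23, adjusted p = 0.99994) and at -0.0030 without that array (and -0.87 without replicate 1), so its low value rests on it. In the other comparisons Hadha lay between -0.076 and 0.15.

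The thiolases, which release acetyl-CoA, had 0 of 3 called. All 3 stood below 0 at 3 h. At 7 h Acaa1a, Acaa1b and Acaa2 stood close to 0, at 0.058, 0.0255 and 0.015. Without both arrays in doubt these values were 0.067, 0.0043 and -0.080. Acaa1a, of peroxisomes, read -0.032, -0.49, -0.056 and -0.14 at 3 h, all below 0, and was fitted at -0.18 (SE 0.092, adjusted p = 0.887). Replicate 2 is the lowest, and without it the value was -0.024. Its close copy Acaa1b, whose transcripts the probes may not keep apart, read 0.24, -1.70, -0.15 and 0.41 there, again lowest on replicate 2. The mitochondrial thiolase Acaa2 read 2.80, 0.078, 0.11 and -0.23 in treated cells, where replicate 1 is the highest single member value and the others lie near 0, and was fitted at 0.69 (SE 0.31, adjusted p = 0.2).

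Of the peroxisomal oxidases 0 of 2 were called. Acox2, which acts on bile acid intermediates and branched chains, read -0.75, 0.22, -0.98 and -0.13 in treated cells, with replicates 1 and 3 low and replicate 2 above 0. It was fitted at -0.41 (SE 0.16, adjusted p = 0.145), called at -0.65 without replicate 2 (adjusted p = 0.0154) and at 0.15 with the Cy3 signs changed, not called. Without replicate 3 it was -0.20 (adjusted p = 0.491). At 7 h it read -0.21, -0.61, 0.14 and -0.24, with replicate 3 above 0, and was fitted at -0.23 (SE 0.16, adjusted p = 1). At 7 h the value was -0.11 without replicate 2 and -0.35 without replicate 3. Acox3 stayed between -0.058 and 0.055 in every comparison.

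Among the genes that pass electrons onward, Etfdh, the flavoprotein dehydrogenase that hands them to ubiquinone, was the single member called. Its treated arrays read -1.09, -0.19, 0.047 and -0.42 (SD 0.49): 3 lie below 0, replicate 1 far below, and replicate 3 just above. The fitted fall was -0.41 (SE 0.11, 95% interval -0.65 to -0.17, limma adjusted p = 0.0480). This call was at the edge of the threshold. It ended without treated replicate 1 (-0.21, adjusted p = 0.159) and held in 2 of the 19 fits that left out 1 array, those without treated replicate 2 or 3; leaving out any time course array also ended it. With the Cy3 signs changed the value was -0.23 (adjusted p = 0.326). At the 4 times Etfdh stayed between -0.10 and 0.064. Of its partners, Etfa stood at -0.046 and Etfb at 0.030 in treated cells. Etfa read -0.11, -0.15, -0.058 and -0.13 at 7 h, all below 0, and was fitted at -0.11 (SE 0.080, adjusted p = 1). Etfb read -0.40, -0.15, -0.0080 and -0.15 at 12 h, also all below 0, and was fitted at -0.18 (SE 0.10, adjusted p = 1); without replicate 1 it was -0.095.

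The thioesterases, which split acyl-CoA back into acid and coenzyme A, had 0 of 7 called and stayed within 0.25 of 0 at all 4 times. Acot9, a mitochondrial member, read 1.70, 0.15 and 0.017 on the 3 treated arrays with a value, replicate 1 far above the others. It was fitted at 0.62 (SE 0.23, n = 3, limma adjusted p = 0.132), at 0.085 without replicate 1, and called at 0.98 without replicate 3 (adjusted p = 0.0403). Acot7, a cytosolic enzyme abundant in brain, had the widest treated values, 0.54, -1.77, 1.47 and 0.70, with replicate 2 alone below 0. Its 3 probes did not share that spread: their SDs between treated arrays were 2.79, 2.01 (3 arrays) and 0.23. Their means there were 0.54, -0.036 and 0.0495. One of its 3 probes averaged -0.82 at 7 h and the others 0.12 and 0.0215, so its value of -0.23 there rests on that probe. Acot12, which acts on acetyl-CoA, had the smallest p of the class in the test among times and lay between -0.032 and 0.13. Acot13 stood above 0 at all 4 times, from 0.017 to 0.090. Acot3, which has near copies beside it in the genome that its probes may also bind, stayed between -0.090 and 0.021 at the 4 times.

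The 4 times were then compared with each other, since a gene near the threshold at one time need not differ from another time. By limma's F test 0 of 46 members differed among times, where the background was 0%, and 0 differed between the mean of 12 h and 23 h and that of 3 h and 7 h (background 0%). By an unadjusted p under 0.05 the F test gave 3 members, Acadl, Hadh and Pank1 (2.37% of all features), and the late against early contrast gave 1, Acadl (2.76% of all features). The late minus early difference was 0.51 for Acadl (SE 0.17; late mean 0.49, early mean -0.026) and 0.42 for Pank1 (SE 0.26; 0.66 and 0.24). For Acadl it comes from 12 h, since its 23 h value was 0.034. For Hadh the times that stood apart were 3 h and 7 h, and its late and early means were -0.0012 and -0.16. Members above 0 at all 4 times numbered 3, and members below 0 at all 4 also numbered 3. The same counts were not made over all features, so they show nothing particular to the members. Without both arrays in doubt 0 members differed among times, with a background of 0.0436%.

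**Figure D4:**
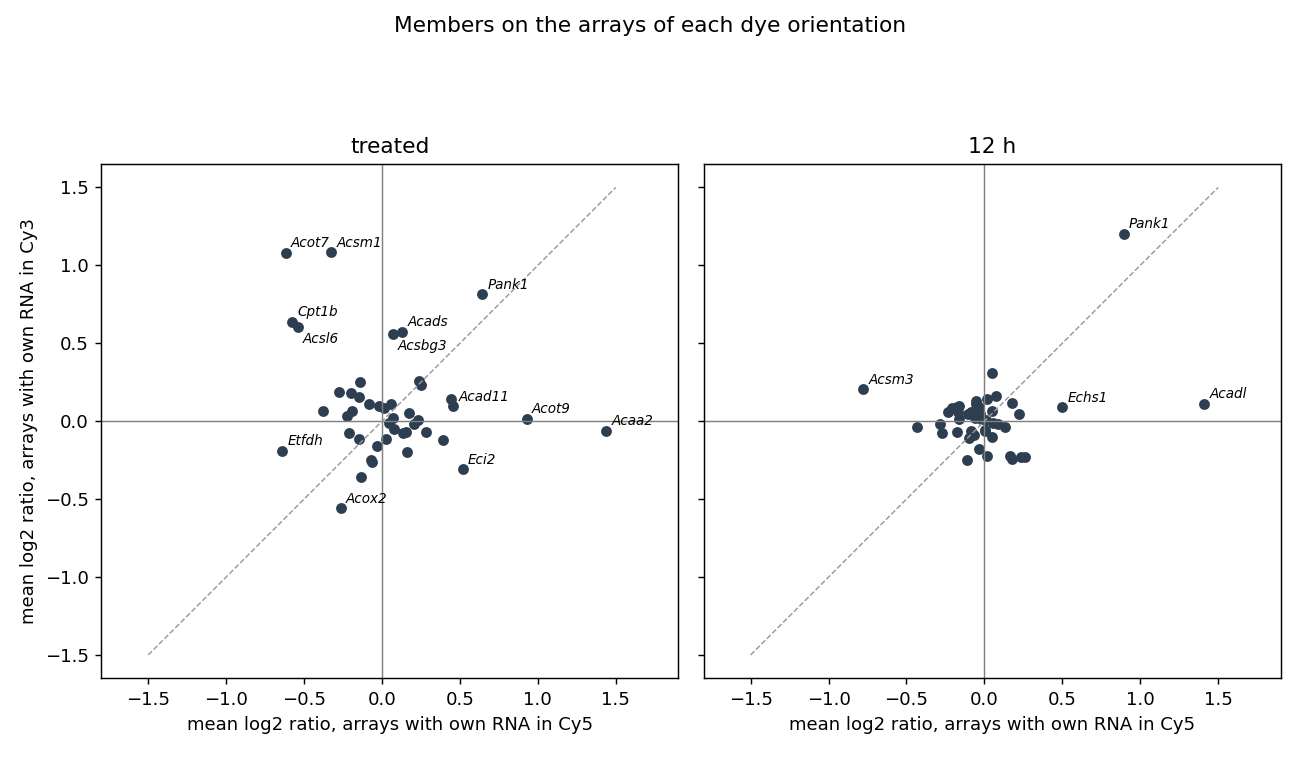
Mean log2 ratio of each member over the Cy5 arrays against that over the Cy3 arrays, in treated cells and at 12 h. Pank1 lies above 0 on both axes in both panels, while in treated cells Cpt1b, Acsl6 and Acsm1 have opposite signs on the 2 dyes.

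The direction of a value depends on how the dyes are read. Reading the files with the signs of the Cy3 arrays changed gave 6 called members in treated cells, Acad12, Acot3, Acsl6, Acsm1, Cpt1b and Eci2, with 8.25% of all features called. Etfdh was not among them. In these 6 the means of the Cy5 and Cy3 arrays lay on opposite sides of 0 under the deposited signs. For Acsl6 replicate 2, a Cy5 array, read 0.041, on the side of the Cy3 arrays. The fitted values of the 6 under the deposited signs lay between -0.16 and 0.19. At the 4 times that reading gave 0 called members.

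Among genes of the surrounding pathways 7 were called, all in treated cells, where 4.76% of all features were. Of 18 tested regulators 2 fell in treated cells: Acaca, the acetyl-CoA carboxylase whose malonyl-CoA blocks carnitine palmitoyltransferase, at -0.90 (SE 0.18, n = 3, limma adjusted p = 0.0144), and Lpin1, a coactivator and phosphatidate phosphatase, at -0.27 (SE 0.060, adjusted p = 0.0223). Of 17 other enzymes of beta oxidation Pecr, a peroxisomal enoyl-CoA reductase, rose at 0.69 (SE 0.15, adjusted p = 0.0205) and Echdc3 fell at -0.33 (SE 0.072, adjusted p = 0.0214). Of 10 genes of lipolysis and lipid droplets Pnpla2, the triglyceride lipase that frees fatty acids, rose at 1.76 (SE 0.42, adjusted p = 0.0272). Catalase, Cat, was the 1 called of 13 peroxisome genes (-1.34) and Bdh2 the 1 of 4 ketone body genes (-1.43). In treated cells 0 were called of 12 genes of carnitine, uptake and transport, 7 known PPAR targets, 7 of coenzyme A synthesis and breakdown, 6 of pyruvate dehydrogenase and 17 of the tricarboxylic acid cycle. At the 4 times 0 genes of any of these lists were called. Their medians in treated cells ran from -0.060 for lipolysis to 0.088 for PPAR targets, with all features at 0.0090.

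These 7 calls in treated cells depended on the processing, and all but that of Lpin1 on single arrays. Each ended in the same 5 alternatives: the Cy3 signs changed, array weights, the treated arrays alone, arrays scaled to the same spread, and quantile normalization; that of Bdh2 also ended without both arrays in doubt. Pecr, Echdc3, Pnpla2 and Bdh2 had the opposite sign with the Cy3 signs changed. Without replicate 1 the call was lost for Acaca (-0.55) and Bdh2 (-1.23), and without replicate 2 for Cat (-0.56) and Pnpla2 (1.12). It was lost without replicate 3 for Pecr (0.48), and without replicate 4 for Pecr (0.64), Echdc3 (-0.26), Pnpla2 (1.36) and Bdh2 (-0.90). Cat and Bdh2 also lost it in most fits without 1 time course array. Of the 19 fits without 1 array Lpin1 kept its call in 19, at -0.27 in each. Acaca and Echdc3 kept theirs in 18, Pecr and Pnpla2 in 17, Cat in 7 and Bdh2 in 6.

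Among these lists the lowest p at any time belonged to genes that were not called. Ppard, the nuclear receptor that activates fatty acid oxidation in many tissues, stood at -0.32 at 3 h (SE 0.11, adjusted p = 0.887). Abhd5, the coactivator of the lipase Pnpla2, stood at -0.32 at 3 h (adjusted p = 0.887), and the fatty acid transporter Slc27a4 at -0.19 at 12 h. Ppcdc, which follows the pantothenate kinases in coenzyme A synthesis, stood at 0.26 at 23 h. Idh3g of the tricarboxylic acid cycle stood at 0.37 at 3 h. In the remaining lists the genes were G0s2 (0.22, 3 h), Hacl1 (-0.16, 3 h), Pdk1 (-0.25, 7 h), Pex6 (-0.25, 12 h) and Bdh2 (0.64, 12 h). Without replicate 3 of its group Bdh2 stood at 0.087 and Pdk1 at -0.16. With the Cy3 signs changed Ppcdc, Idh3g, Hacl1, Pdk1 and Bdh2 had the opposite sign, and with array weights Pex6 was called. At 23 h 14 of 17 genes of that cycle lay below 0, with a median of -0.095 and 0 called, while 49.4% of all features lay above 0. That group has 3 arrays, and replicate 3 is in doubt.

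The neutrophil list had a median of -0.16 in treated cells and -0.11, -0.12, -0.34 and -0.30 at the 4 times, with 9, 10, 9, 9 and 11 of 12 genes below 0 and 0 called. Of all features 52.1%, 50%, 49.3%, 51.1% and 49.4% lay above 0, in the same order. At 12 h, the time of the highest Pank1 and Acadl values, the genes of the neutrophil list ran from -0.59 to 0.11. With the Cy3 signs changed the list's median was 0.062 in treated cells and 0.025, -0.11, 0.038 and -0.31 at the 4 times, so it was above 0 in treated cells, at 3 h and at 12 h and below 0 at 7 h and 23 h. Of the other lists 4 markers were called in treated cells, where 4.76% of all features were called, and 0 at the 4 times. They were Gp5 of megakaryocytes at 0.93, Cd68 of macrophages at -0.34, Cd3g of lymphoid cells at -0.36 and Lox of fibroblasts at -0.33. Each was the only gene of its list to be called, so these calls do not describe the lists. These 4 calls ended under the same 5 alternatives as the calls above, that of Cd68 in 8 of 12 alternatives and that of Cd3g in 9 of 12. In the 19 fits without 1 array Cd68 kept its call in 4, Cd3g in 13, Lox in 18 and Gp5 in 19, the last at 0.56 without treated replicate 3. Gp5, Cd68 and Lox had the opposite sign with the Cy3 signs changed. Their part in the members' values was not tested. In RNA of whole cultures, fewer cells of a type and less RNA per cell cannot be told apart.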

How the data were processed

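Arrays of 2 colours compared cDNA made from total RNA and dyed indirectly, per the labels' protocols, which also speak of organs and control animals although the samples are a cell line. The authors deposited 1 log ratio per spot, read here as log2; which base, numerator and normalization the authors used is not stated in the labels or headers, and no spot intensities were used. Values beyond 16 in size, 1 repeated extreme per array on 8 to 29 spots, were set to missing, each array was centred on its median, and probes of a gene were averaged (11 members have several). The platform annotation gave 13891 of 20205 probes 1 symbol, 5 several and 6309 none; all 46 member symbols matched RefSeq. The 16148 features were fitted with limma 3.58.1 in R 4.3.3 (group means and a dye term, 19 arrays, Benjamini-Hochberg adjustment), if at most 1 array of a group lacked a value. The fit was tested on simulated data. Members and lists were chosen with earlier results of these data known. Full statistics are given for members called, otherwise the 5 with the smallest p per comparison, and for the member of each role with the smallest p among times; of the other lists, for called genes and selected genes with the smallest p over the times. Deposited signs were kept; the alternatives were Cy3 signs changed, both arrays in doubt left out, array weights, separate fits, no dye term, a replicate block, no centring, extremes kept, no filter, scaling, quantile normalization, single probes and each array left out.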

Additional observations from a re-analysis of the deposited data

Results flagged for a closer look

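In a search of 36 groups of 4 arrays for an array far from the others (a gap to the nearest, as a share of the range, over Dixon's 95% limit for 4 samples), 2 were found, both on 7 h replicate 4. Chance gives about 1 in 20, so 2 of 36 is near the rate of chance. The groups were those of genes called or with the smallest p in these data, which is no neutral set. Hadh read -1.66 on it, with the other 3 arrays between -0.30 and -0.24 and a gap of 0.962 of the range. Pank1 read -0.34 on it, with the others between 0.72 and 0.91 and a gap of 0.85. This is the array whose repeated extreme value is positive although its treated RNA is labelled Cy3; whether the array's orientation sets both values was not tested.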

How the results depend on the processing

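For the genes named with their statistics, 552 values were recomputed under the alternatives: 461 kept their direction and side of the threshold, 64 lost the threshold, 5 passed it and 22 reversed, all 22 with the Cy3 signs changed. Those reversed values were, for members, -0.0088 (Acad8, 3 h), 0.11 and 0.15 (Acad9 and Acox2, treated), 0.13 and 0.35 (Acadvl and Hadh, 7 h), -0.070 and 0.64 (Acsl3 and Hadha, 23 h), -0.16 and -0.086 (Pank1, 12 h and treated) and -0.042 (Pank2, 12 h). For other genes they were 0.28, 0.024, 0.097, -0.15, 0.044, -0.44 and -0.19 in treated cells (Bdh2, Cd68, Echdc3, Gp5, Lox, Pecr and Pnpla2), and -0.75 (Bdh2, 12 h), 0.022 and -0.072 (Hacl1 and Idh3g, 3 h), 0.17 (Pdk1, 7 h) and -0.091 (Ppcdc, 23 h). The 1 member called in treated cells became 6 with the Cy3 signs changed and 0 with array weights, the treated arrays alone, no dye term, no centring, scaling or quantile normalization; without both arrays in doubt the 1 was Pank1, not Etfdh. Leaving out single arrays gave 0 to 5: Acads, Acot7, Acox2, Etfdh and Pank1 without treated replicate 2, Acot9 and Etfdh without replicate 3, Acsl6 without replicate 1 and 0 without replicate 4 or any time course array. At 12 h the count of 0 became 1 without both arrays in doubt and 2 with array weights, and 0 to 1 without single arrays. At 3 h, 7 h and 23 h, among times and late against early it was 0 in each alternative run. The treated member median was 0.011 with the Cy3 signs changed, 0.029 with scaling and 0.017 with quantile normalization, and the 23 h median 0.060 without centring. Without single arrays the treated median ran from 0.0081 to 0.047, the 3 h median from -0.032 to 0.014 and Acsm3 at 23 h from -0.12 to 1.39; of 874 such values 799 kept their direction and side of the threshold and 1 reversed. The cause was not tested. Arrays with the same replicate number correlated by 0.029 on average after removing group means (36 pairs, -0.11 to 0.19), so the numbers were not taken to pair the arrays. With the replicate block the members called were 1 in treated cells, Etfdh (-0.41, adjusted p = 0.0432), and 0 at each time, and 606 features were called in treated cells in place of 758. The 3 or 4 arrays of a group limit the precision, and signal over background was not used here.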
